A study of Rattus norvegicus with 12 samples.

Results

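Cyclic AMP (cAMP) is the messenger that a hormone on the cell surface raises inside the cell. A Gs-coupled receptor, such as that of follicle-stimulating hormone or luteinizing hormone, switches on an adenylyl cyclase, which makes cAMP from ATP. Phosphodiesterases break cAMP down, and protein kinase A (PKA) reads it: the kinase rests as a complex of regulatory and catalytic subunits, and cAMP bound to the regulatory subunits frees the catalytic ones. A-kinase anchoring proteins (AKAPs) hold PKA at given sites of the cell, and the transcription factors CREB and CREM carry the signal to genes with a cAMP response element. In the ovary this chain carries the gonadotropin signal that drives follicle growth, steroid synthesis and ovulation.

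The genes described here were chosen by symbol from the deposited expression table: every adenylyl cyclase (Adcy with a number), every phosphodiesterase named Pde with a number and a letter from a to d, the catalytic and regulatory subunits of PKA (Prkac and Prkar), every gene named Akap with a number, and Adcyap1, Creb1 and Crem. This rule used no measured value, though earlier results of these data were known when the genes were chosen. It found 55 of 19730 genes: 1 ligand, 10 cyclases, 22 phosphodiesterases, 2 catalytic and 4 regulatory subunits of PKA, 14 AKAPs and 2 transcription factors. Of these, 41 had a mean of at least 1 FPKM (fragments scaled to gene length and to the number of mapped fragments) over the 12 libraries and were tested, and 14 were below that level. None of the 41 passed the level only through the group in which it was highest.

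Whole ovaries of wild type female Sprague Dawley rats, labelled as postnatal week 15, were sequenced in 12 libraries, 4 per group. The Control rats were untreated and had standard food. The PCOS rats, a model of polycystic ovary syndrome, were given letrozole, an inhibitor of aromatase, for 30 days, and the study's methods add a high-fat diet that the labels do not name. The PCOS-MV rats had the same treatment and then mogroside V (MV), a sweet triterpene glycoside of monk fruit, for 30 days. By the study's methods, letrozole and the diet were given before the mogroside V period, and all rats were killed at its end. The PCOS ovaries were therefore not taken during letrozole treatment. Drug and diet were given together, so their effects cannot be told apart. The PCOS rats were kept as a model when their vaginal smears stayed in metestrus and diestrus, and the stage at which the ovaries were taken is not used here. The ovary is a mixture of cells, and in such bulk libraries fewer cells of a type and less RNA per cell cannot be told apart.

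The number of mapped fragments is not given in the deposited table, so depth is unknown. A library listed 17576 to 18247 genes above 0. Libraries of a group correlated across genes with r of 0.972 to 0.978 in PCOS, 0.952 to 0.978 in PCOS-MV and 0.921 to 0.974 in Control, where Control 3 stood farthest from its group (mean r 0.936). All 10 granulosa cell markers listed were found, with a summed level of 893 to 1250 FPKM in Control, 1520 to 2160 FPKM in PCOS and 819 to 1390 FPKM in PCOS-MV. Of 9 tested, 5 were higher and 0 lower in PCOS than in Control. Against the sum went Amh, with means of 48.9, 28.0 and 41.1 FPKM, and Nr5a2, with 42.8, 23.0 and 38.7 FPKM, neither called. Hsd17b1 (47.7, 40.8 and 41.5 FPKM) was not called either. Of 8 luteal markers 6 were found, and their sum was 2990 to 5050, 1160 to 2270 and 2190 to 4590 FPKM in the same order. Of these 6, 3 were lower in PCOS than in Control and 1 was higher. The latter was Lhcgr, also on the theca list, with means of 59.0, 149 and 49.1 FPKM. All 8 theca and interstitial markers were found, at 1460 to 3210, 2500 to 4610 and 899 to 2940 FPKM. Members of that list went opposite ways: the means of Insl3 were 5.70, 1030 and 7.89 FPKM and those of Cyp17a1 34.6, 1190 and 37.4 FPKM, while those of Cyp11a1 were 2190, 968 and 1490 FPKM. No marker of these 3 lists was at 0 throughout a group. The sum of 7 endothelial markers was 133 to 168 FPKM in Control, 95.1 to 128 FPKM in PCOS and 121 to 149 FPKM in PCOS-MV. Of them 5 were lower and 1 (Vwf) was higher in PCOS than in Control. Between PCOS-MV and PCOS 3 were higher and 1 (Cldn5) was lower in PCOS-MV. The sum of 8 adipocyte markers was 35.7 to 111, 17.1 to 29.9 and 20.0 to 49.6 FPKM, with 4 of 5 tested lower in PCOS. That of 8 nerve markers was 2.84 to 6.62, 1.76 to 2.71 and 3.11 to 16.5 FPKM. Prph, the only nerve marker tested, held 14.2 of the 16.5 FPKM in PCOS-MV 2. Syp went against the nerve sum, with means of 0.372, 0.548 and 0.379 FPKM in the same order. The sums of oocyte, smooth muscle, leukocyte, ciliated epithelium and proliferation markers overlapped between PCOS and Control. The granulosa and nerve sums in PCOS did not overlap those of either other group. The luteal, endothelial and adipocyte sums in PCOS lay below those in Control and overlapped those in PCOS-MV. Theca and interstitial sums in PCOS overlapped those of both other groups. The endothelial sums were lower in PCOS than in Control, as Adcy4 and Pde2a were, and the part of all these cells in the results below was not tested.

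In PCOS vs Control, 15 of the 41 genes tested passed the test (limma on log2(FPKM + 1), adjusted p under 0.05 over 13430 genes), which is 36.6%, where 27.4% of all genes tested were called. Of these, 7 were higher in PCOS (17.1%, against 11.9% of all genes) and 8 were lower (19.5%, against 15.6%). In PCOS-MV vs PCOS, 18 of 41 were called, or 43.9%, where 25.7% of all genes were called, with 8 higher (19.5%, against 14.3%) and 10 lower (24.4%, against 11.4%) in PCOS-MV. The share of cAMP genes called was above that of all genes in both comparisons, and no test was made of this excess. The changes had no common direction: the log2 fold changes of the 41 genes had a median of -0.02 for PCOS vs Control and of -0.05 for PCOS-MV vs PCOS, where those of all genes had medians of -0.03 and 0.03. In size, without sign, the medians were 0.22 and 0.22, beside 0.22 and 0.21 for all genes. Libraries of the groups did not overlap for 16 of the 41 genes between PCOS and Control (39.0%, against 31.0% of all genes) and for 18 between PCOS-MV and PCOS (43.9%, against 30.0%).

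The called genes fell into 4 classes. Pde8b, Prkar2b, Pde1a, Adcy5, Pde7b, Adcy6 and Akap9 were higher in PCOS than in Control and lower in PCOS-MV than in PCOS (7 genes). Pde4d, Adcy3, Adcy4, Akap10, Pde2a and Prkaca were lower in PCOS and higher in PCOS-MV than in PCOS (6 genes). Adcy9 and Akap12 were called in PCOS vs Control alone, and Pde3b, Pde6d, Akap7, Akap8 and Akap13 in PCOS-MV vs PCOS alone. The 2 comparisons share the 4 PCOS libraries, so the opposite signs of the 13 genes called in both are not independent of each other, and whether a gene called in 1 comparison alone differed between the comparisons was not tested. The remaining 21 genes were called in neither. How many of all genes tested fell into each class was not determined. These counts therefore do not show whether opposite calls were more frequent among the cAMP genes than among other genes. The paper reports that many genes changed in PCOS, across the whole transcriptome, were reversed after mogroside V.

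**Figure D1:**
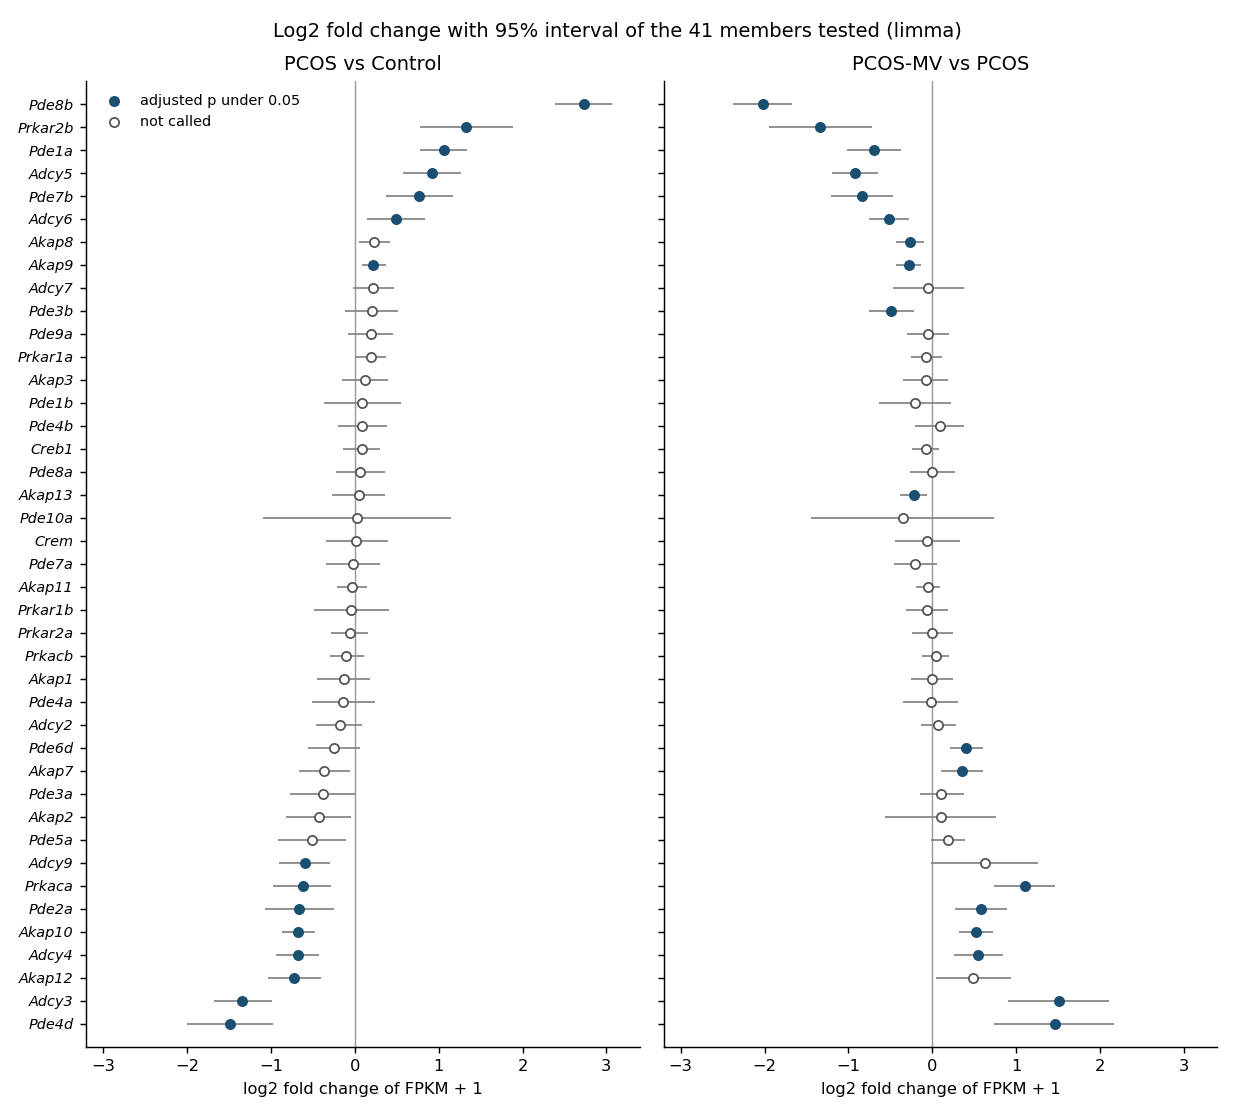
Log2 fold change of FPKM + 1 of the 41 cAMP genes tested in PCOS vs Control (left) and PCOS-MV vs PCOS (right), with the 95% interval from limma, in the order of the left panel. Filled points are genes with an adjusted p under 0.05 (15 and 18). Pde8b lies farthest to the right in the left panel (2.73) and farthest to the left in the right panel (-2.02), while Pde4d and Adcy3 lie at the opposite ends.

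Adenylyl cyclases differ in what else they answer to besides Gs. Of the 10 genes, 7 were tested. In PCOS vs Control, where 27.4% of all genes tested were called, 2 were higher and 3 lower. In PCOS-MV vs PCOS, where 25.7% were called, 2 were higher and 2 lower. Adcy9, a widely expressed membrane cyclase, had the highest level of the family (mean of 61.4 FPKM over all libraries), followed by Adcy6 (17.4 FPKM), Adcy5 (9.27 FPKM), Adcy7 (7.15 FPKM), Adcy3 (6.96 FPKM), Adcy4 (2.97 FPKM) and Adcy2 (1.67 FPKM).

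Adcy3, known as the cyclase of olfactory neurons and of primary cilia, showed the largest fall in this family. In replicate order, as in all such lists here, its level was 10.5, 9.64, 6.81 and 6.35 FPKM in the Control libraries, 2.57, 2.85, 2.37 and 2.74 FPKM in PCOS, and 9.94, 13.0, 4.58 and 12.2 FPKM in PCOS-MV. Every PCOS library lay below every Control library and every PCOS-MV library, and PCOS-MV 3 was the lowest of its group. Between PCOS and Control it fell by 1.34 on the log2 scale (SE 0.15, adjusted p = 0.000398 from limma), and between PCOS-MV and PCOS it rose by 1.51 (SE 0.26, adjusted p = 0.00461). The exact permutation test gave p = 0.0286 for each, the smallest value that 4 against 4 libraries allow. Adcy3 (ENSRNOG00000003999, chromosome 6 from 28571351 to 28650148 in the authors' coordinates, whose genome build is not given in the sources used here) overlaps Cenpo on the other strand, a gene with a mean of 1.27 FPKM, and the library kit does not mark strand, so their reads cannot be told apart where they overlap.

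Adcy9 was at 80.6, 77.3, 53.7 and 58.0 FPKM in Control 1 to 4, at 45.9, 40.5, 44.8 and 43.5 FPKM in PCOS 1 to 4, and at 89.5, 42.0, 110 and 50.9 FPKM in PCOS-MV 1 to 4. The PCOS libraries lay below all Control libraries within a narrow range. The PCOS-MV libraries split widely, with replicates 1 and 3 above all Control libraries and replicate 2 within the PCOS range. The fall in PCOS vs Control was called (log2 fold change -0.59, SE 0.14, adjusted p = 0.0122), though not with all 12 libraries in 1 model (adjusted p = 0.114). Against PCOS, the log2 fold change of PCOS-MV was 0.63 (SE 0.28, adjusted p = 0.134), and it passed only when PCOS-MV 2 was left out (adjusted p = 0.0385).

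Adcy5 and Adcy6 are close relatives that calcium inhibits, and both moved opposite to Adcy3. Adcy5 was at 5.39, 6.96, 8.39 and 6.96 FPKM in Control, at 17.5, 11.6, 12.9 and 14.1 FPKM in PCOS, and at 6.41, 6.84, 7.04 and 7.20 FPKM in PCOS-MV. The groups of Adcy5 did not overlap in either comparison, and the PCOS mean was 2.02 times the Control mean. It rose by 0.92 on the log2 scale (SE 0.15, adjusted p = 0.0023) in PCOS and was lower again in PCOS-MV, with a log2 fold change of -0.92 (SE 0.12, adjusted p = 0.00104). Adcy6 was at 12.1, 13.9, 19.1 and 16.7 FPKM in Control, at 27.1, 20.6, 19.2 and 20.9 FPKM in PCOS, and at 14.7, 14.1, 15.8 and 14.9 FPKM in PCOS-MV. Control 3 (19.1 FPKM) came close to PCOS 3 (19.2 FPKM) without overlap. Its rise in PCOS was 0.49 on the log2 scale (adjusted p = 0.0436), and among the 8 fits that left out 1 library each it was called only without Control 3 (adjusted p from 0.0176 to 0.106 over the 8). The lower level in PCOS-MV than in PCOS (log2 fold change -0.52, adjusted p = 0.00873) held in all 8.

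Adcy4, of the group of cyclases that beta-gamma subunits of G proteins stimulate, was at 3.05, 4.11, 3.36 and 4.28 FPKM in Control, at 1.97, 1.83, 2.06 and 1.78 FPKM in PCOS, and at 2.71, 3.25, 4.42 and 2.80 FPKM in PCOS-MV. No PCOS library reached the lowest of either other group. It changed by -0.68 on the log2 scale (SE 0.11, adjusted p = 0.0024) and then by 0.55 (SE 0.13, adjusted p = 0.0153). Its relatives Adcy7 and Adcy2 were not called, with log2 fold changes of 0.22 (95% interval -0.02 to 0.47) and -0.18 (-0.46 to 0.09) in PCOS vs Control.

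**Figure D2:**
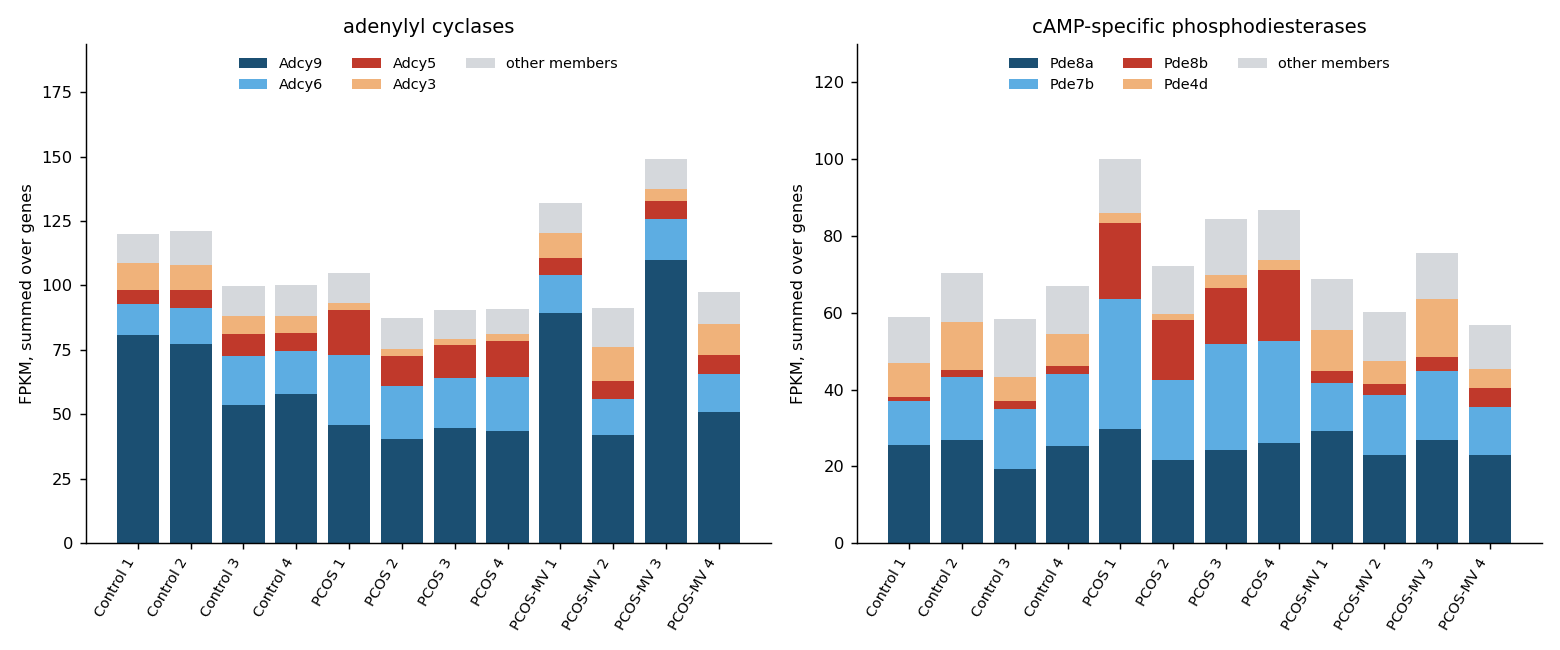
FPKM of the adenylyl cyclases (left) and of the cAMP-specific phosphodiesterases (right) summed in each library, with the named genes in colour and all others of the family in grey. Adcy9 makes up 43.6% to 49.5% of the cyclase sum in the PCOS libraries and 53.8% to 67.2% in the Control libraries, and the red Pde8b segment is widest in the 4 PCOS libraries.

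Summed over the family, cyclase transcripts were at 99.8 to 121 FPKM in Control, 87.2 to 105 FPKM in PCOS and 91.1 to 149 FPKM in PCOS-MV, so the sums overlapped while their makeup differed. Adcy5 and Adcy6 made up 4.49% to 8.41% and 10.1% to 19.1% of the sum in Control. In PCOS these shares were 13.2% to 16.6% and 21.2% to 25.7%, and in PCOS-MV they were 4.72% to 7.5% and 10.6% to 15.5%. Adcy3 held 6.34% to 8.77%, 2.44% to 3.26% and 3.07% to 14.2% in the same order.

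Phosphodiesterases of the 4, 7 and 8 families break down cAMP alone, those of the 1, 2, 3 and 10 families break down cAMP and cyclic GMP (cGMP), and the others act on cGMP. Of 22 genes 16 were tested. In PCOS vs Control, where 27.4% of all genes tested were called, 3 rose and 2 fell. In PCOS-MV vs PCOS, where 25.7% were called, 3 were higher and 4 lower. In PCOS vs Control the largest rise and the largest fall of the 41 genes were those of Pde8b and Pde4d, both cAMP-specific. The 250 bases before an annotated start of each are shown from RefSeq (assembly GRCr8, a different build from that of the authors' file), to show a promoter window of the leading riser and one of the leading faller. Capitals mark the core of the cAMP response element, TGACGT, searched on both strands. The Pde4d window is 1 of 5 listed for that gene (chr2:42592499-42592748, plus strand) and holds the core at position -194 from the start. It is shown because it holds the core, which the other 4 Pde4d windows do not. The only Pde8b window (chr2:28116052-28116301, minus strand) holds none.
Pde4d: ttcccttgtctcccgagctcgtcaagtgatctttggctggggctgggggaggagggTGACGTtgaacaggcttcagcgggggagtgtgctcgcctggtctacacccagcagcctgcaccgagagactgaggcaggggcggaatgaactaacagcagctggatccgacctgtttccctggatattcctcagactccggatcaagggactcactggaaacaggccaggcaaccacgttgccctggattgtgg
Pde8b: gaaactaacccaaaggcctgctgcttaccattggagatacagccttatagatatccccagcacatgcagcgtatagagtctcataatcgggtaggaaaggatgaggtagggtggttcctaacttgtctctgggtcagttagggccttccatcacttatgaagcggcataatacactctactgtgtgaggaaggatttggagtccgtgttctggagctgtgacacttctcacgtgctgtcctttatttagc

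Pde8b, a phosphodiesterase with a very high affinity for cAMP that is known for its part in adrenal steroid synthesis, had the largest change of the 41 genes. It was at 1.17, 1.59, 2.14 and 2.09 FPKM in Control, at 20.0, 15.7, 14.4 and 18.5 FPKM in PCOS, and at 2.98, 2.73, 3.55 and 4.72 FPKM in PCOS-MV. The 3 groups did not overlap at all: each PCOS library was above each PCOS-MV library, and each PCOS-MV library was above each Control library. The group means were 1.75 ± 0.457, 17.2 ± 2.56 and 3.49 ± 0.887 FPKM (SD, n = 4), a ratio of 9.83 between PCOS and Control. On the log2 scale this was a rise of 2.73 (SE 0.15, adjusted p = 9.84e-06 from limma), and PCOS-MV differed from PCOS by -2.02 (SE 0.15, adjusted p = 0.00012 from limma). Leaving out any library kept both calls. Pde8b (ENSRNOG00000010280) spans 24719976 to 24923128 on chromosome 2 in the authors' coordinates.

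Its paralog Pde8a, the phosphodiesterase with the highest mean over all 12 libraries, was called in neither comparison. In PCOS the means of Pde7b (27.2 FPKM) and Pde1a (26.7 FPKM) were above that of Pde8a (25.5 FPKM). It was at 25.6, 27, 19.4 and 25.4 FPKM in Control, at 29.8, 21.6, 24.3 and 26.1 FPKM in PCOS, and at 29.1, 23.0, 26.8 and 23.1 FPKM in PCOS-MV. All 3 groups overlapped, and the log2 fold change was 0.06 (95% interval -0.23 to 0.36, adjusted p = 0.741) and 0.00 (-0.26 to 0.27, adjusted p = 0.986). Of the summed FPKM of cAMP-specific phosphodiesterases, Pde8b held 1.99% to 3.66% in Control, 17.1% to 21.8% in PCOS and 4.33% to 8.31% in PCOS-MV.

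Pde4d, the rolipram-sensitive enzyme that limits the cAMP response of granulosa cells to gonadotropins, fell in PCOS. Its level was 8.78, 12.6, 6.07 and 8.39 FPKM in Control, 2.40, 1.56, 3.57 and 2.58 FPKM in PCOS, and 10.7, 6.04, 15.1 and 5.12 FPKM in PCOS-MV. Each PCOS library was below each library of the other groups, and PCOS-MV 1 and 3 stood above PCOS-MV 2 and 4. It fell by 1.49 on the log2 scale (SE 0.22, adjusted p = 0.00165) and was higher by 1.46 in PCOS-MV than in PCOS (SE 0.31, adjusted p = 0.0109), and both calls held with each library left out in turn. Pde4d (ENSRNOG00000042536, chromosome 2 from 40554146 to 41464264) has many isoforms from separate promoters, which a gene-level FPKM does not tell apart. The related Pde4a and Pde4b were not called, with log2 fold changes of -0.14 and 0.09 in PCOS vs Control and -0.02 and 0.09 in PCOS-MV vs PCOS.

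Pde7b, a cAMP-specific enzyme that rolipram does not block, was at 11.4, 16.4, 15.6 and 18.7 FPKM in Control, at 33.7, 20.8, 27.7 and 26.5 FPKM in PCOS, and at 12.7, 15.7, 18.1 and 12.5 FPKM in PCOS-MV. All PCOS libraries were above the others. It rose by 0.77 on the log2 scale (SE 0.17, adjusted p = 0.0115), and PCOS-MV differed from PCOS by -0.84 (SE 0.16, adjusted p = 0.00716). Its paralog Pde7a had log2 fold changes of -0.02 (95% interval -0.34 to 0.30) and -0.20 (-0.46 to 0.06) and was not called.

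**Figure D3:**
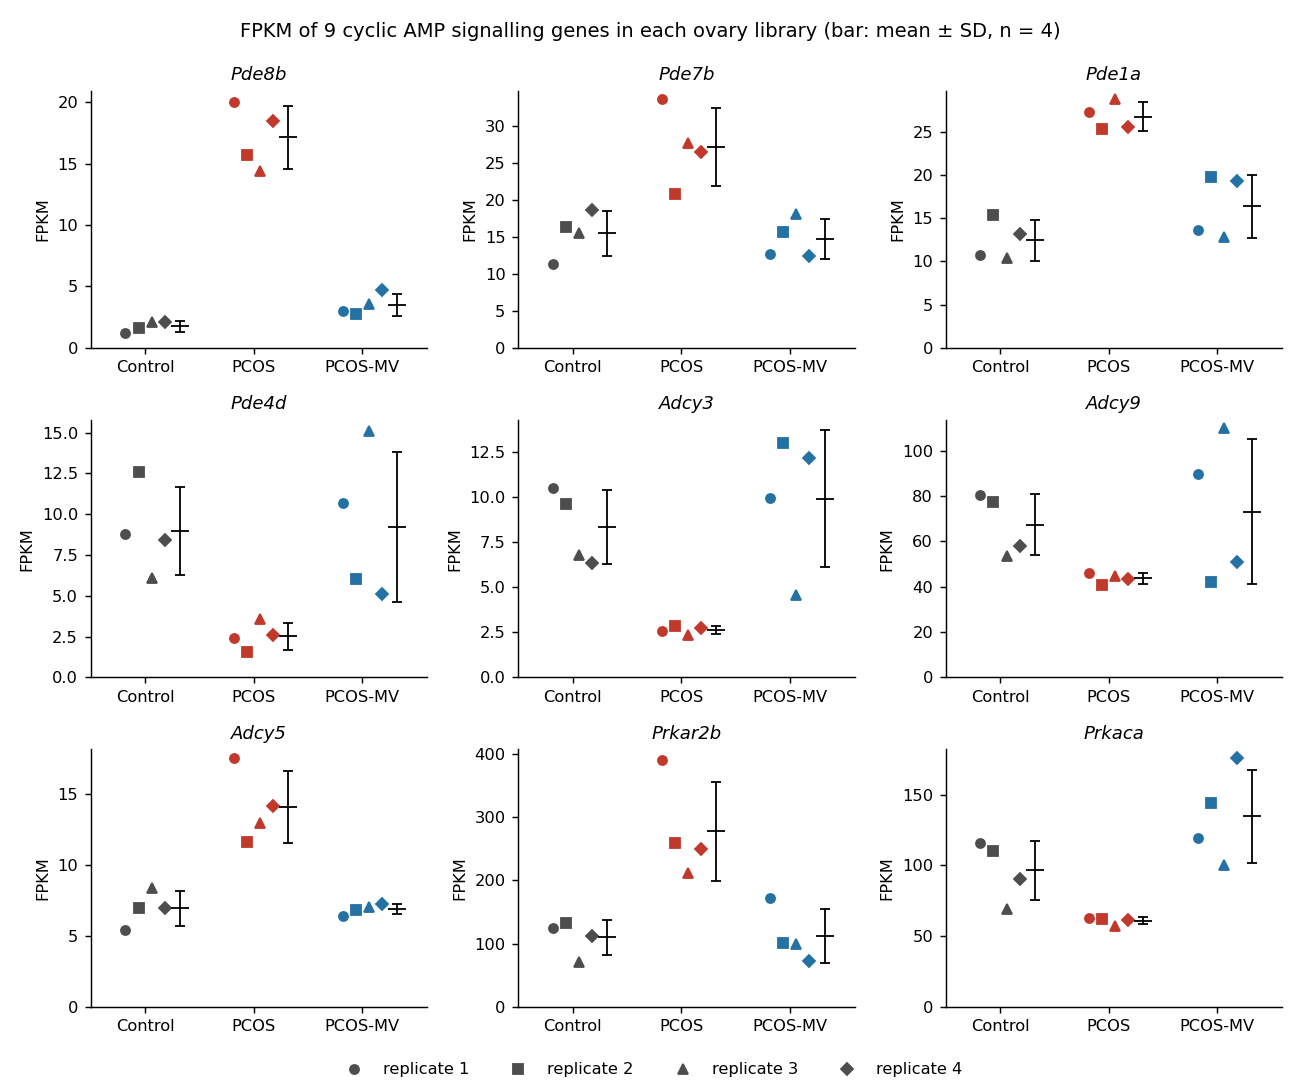
FPKM of 9 cAMP genes in each library, with a marker for each replicate and a bar for the mean and SD (n = 4), each panel on its own linear axis from 0. The PCOS points of Pde8b, Pde7b, Pde1a, Adcy5 and Prkar2b stand above those of both other groups, and the PCOS points of Pde4d, Adcy3 and Prkaca stand below them. For Adcy9, PCOS-MV 2 (42.0 FPKM) lies among the PCOS points.

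Among the enzymes that break down both nucleotides, Pde1a, which calcium and calmodulin switch on, had the highest level. It was at 10.7, 15.4, 10.4 and 13.2 FPKM in Control, at 27.3, 25.3, 28.8 and 25.5 FPKM in PCOS, and at 13.6, 19.7, 12.8 and 19.3 FPKM in PCOS-MV. The groups did not overlap in either comparison. Pde1a rose by 1.06 on the log2 scale (SE 0.12, adjusted p = 0.000415), and PCOS-MV differed from PCOS by -0.70 (SE 0.14, adjusted p = 0.00905). Its paralog Pde1b was not called, with log2 fold changes of 0.09 (95% interval -0.37 to 0.55) and -0.21 (-0.64 to 0.22).

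Pde2a, which cGMP activates, was at 3.19, 4.27, 6.41 and 5.38 FPKM in Control, at 3.23, 2.57, 2.13 and 2.58 FPKM in PCOS, and at 3.48, 4.12, 4.81 and 5.38 FPKM in PCOS-MV. Control 1 lay within the PCOS range, and no PCOS-MV library did. The fall of 0.66 on the log2 scale between PCOS and Control (log2 fold change -0.66, SE 0.18, adjusted p = 0.0266) was lost without the filter on low values (adjusted p = 0.0503) and in the fits without Control 4, PCOS 2, PCOS 3 or PCOS 4 (highest adjusted p = 0.0724). The rise of 0.58 between PCOS-MV and PCOS (SE 0.14, adjusted p = 0.0152) held with each library left out.

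The cGMP-inhibited pair Pde3a and Pde3b take part in oocyte arrest and in the response to insulin. Pde3b was at 2.72, 3.62, 4.77 and 3.10 FPKM in Control, at 4.67, 3.72, 4.21 and 4.09 FPKM in PCOS, and at 2.78, 3.31, 2.03 and 2.67 FPKM in PCOS-MV. It was lower in PCOS-MV than in PCOS, without overlap (log2 fold change -0.49, SE 0.12, adjusted p = 0.0171), while Control spanned the PCOS range (log2 fold change 0.20, adjusted p = 0.323). Pde3a was not called, with log2 fold changes of -0.38 (95% interval -0.77 to 0.01) and 0.11 (-0.15 to 0.38). Pde10a was at 20.7 FPKM in PCOS 1 and at 2.54 to 5.26 FPKM in the other PCOS libraries, and its interval in PCOS vs Control ran from -1.10 to 1.15.

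Pde6d is not a catalytic enzyme but a carrier of prenylated proteins. Its level was 22.9, 19.5, 14.9 and 15.7 FPKM in Control, 16.2, 15.1, 13.3 and 15.4 FPKM in PCOS, and 22.2, 20.6, 18.4 and 19.4 FPKM in PCOS-MV. Every PCOS-MV library exceeded every PCOS library (log2 fold change 0.40, SE 0.09, adjusted p = 0.0101), and Control overlapped with PCOS (log2 fold change -0.25, adjusted p = 0.202). The cGMP-specific Pde5a lay lower in every PCOS library (4.59 to 5.98 FPKM) than in every Control library (6.33 to 11.7 FPKM) but was not called (log2 fold change -0.51, adjusted p = 0.0633).

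The PKA holoenzyme is built from catalytic subunits, whose main forms are encoded by Prkaca and Prkacb, and regulatory subunits of type I (Prkar1a, Prkar1b) and type II (Prkar2a, Prkar2b). In PCOS vs Control, 1 catalytic gene of 2 was lower and 1 regulatory gene of 4 was higher. Both were called in the opposite direction in PCOS-MV vs PCOS.

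Prkar2b encodes the RII-beta subunit, long known from granulosa cells as a product that gonadotropins induce. Its level was 125, 133, 70.3 and 112 FPKM in Control, 391, 259, 211 and 250 FPKM in PCOS, and 172, 101, 100 and 73.0 FPKM in PCOS-MV. The lowest PCOS library stood above the highest library of the other groups, and the means were 110 ± 27.9, 278 ± 78.1 and 112 ± 42.2 FPKM (SD, n = 4). PCOS exceeded Control by 1.33 on the log2 scale (SE 0.24, adjusted p = 0.00408 from limma), and PCOS-MV differed from PCOS by -1.34 (SE 0.27, adjusted p = 0.00848 from limma), and both calls held with each library left out. The gene (ENSRNOG00000009079) lies at 51265515 to 51356383 on chromosome 6 in the authors' coordinates.

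The other regulatory subunits were not called. Prkar1a, which encodes RI-alpha, had the highest mean of the family over all 12 libraries, though Prkar2b was above it in each PCOS library. It was at 190, 186, 180 and 175 FPKM in Control, at 221, 210, 189 and 217 FPKM in PCOS, and at 213, 194, 188 and 202 FPKM in PCOS-MV. Only PCOS 3 (189 FPKM) fell within the Control range. The log2 fold change in PCOS vs Control was 0.19 (95% interval 0.02 to 0.37, adjusted p = 0.0957) and passed when PCOS 3 was left out (adjusted p = 0.0498). Prkar2a and Prkar1b had log2 fold changes of -0.06 (-0.28 to 0.16) and -0.04 (-0.49 to 0.41) in the same comparison.

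Prkaca, the gene of the main catalytic subunit, moved opposite to Prkar2b. Its level was 116, 110, 69.3 and 90.1 FPKM in Control, 62.9, 62.3, 57.0 and 61.6 FPKM in PCOS, and 119, 144, 100 and 176 FPKM in PCOS-MV. The PCOS libraries lay below all others and close together. Between PCOS and Control Prkaca fell by 0.62 on the log2 scale (SE 0.15, adjusted p = 0.0155), and PCOS-MV exceeded PCOS by 1.10 (SE 0.16, adjusted p = 0.00178), in all fits that left out 1 library. Compared with Control, PCOS-MV had a log2 fold change of 0.47 (95% interval -0.01 to 0.96, adjusted p = 0.592). Prkacb was at 29.4 to 38.1 FPKM in Control, 31.1 to 32.7 FPKM in PCOS and 30.5 to 35.4 FPKM in PCOS-MV, with log2 fold changes of -0.10 (-0.30 to 0.11) and 0.04 (-0.12 to 0.20).

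**Figure D4:**
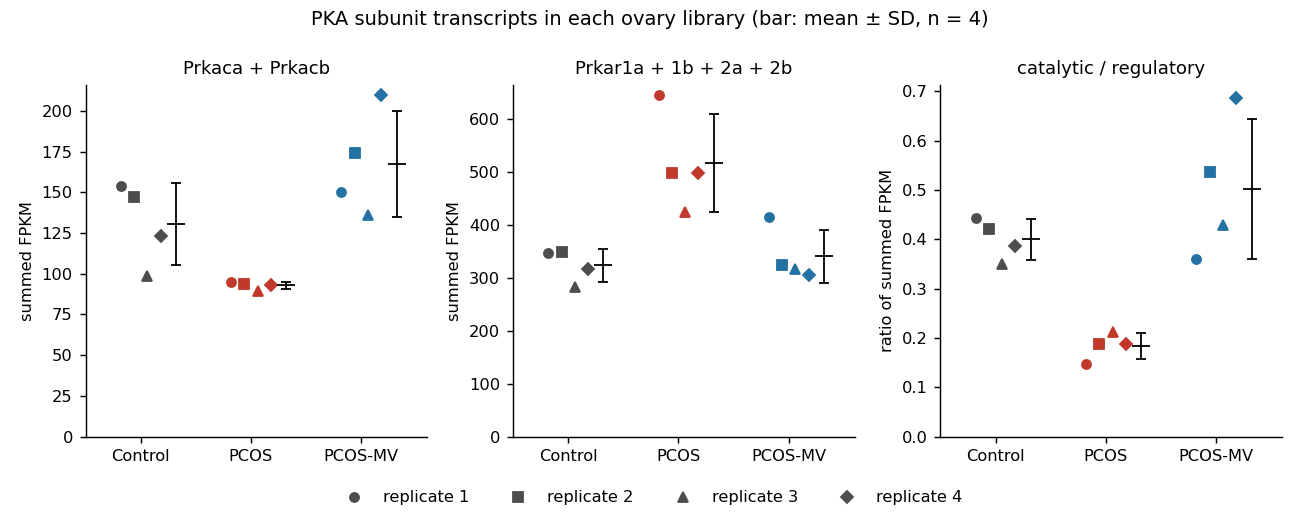
Summed FPKM of the 2 catalytic subunit genes (left), of the 4 regulatory subunit genes (middle) and the ratio of the sums (right) in each library, with a marker for each replicate and a bar for the mean and SD (n = 4). The ratio is 0.147 to 0.211 in the PCOS libraries and at least 0.349 in every other library.

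Both moves enter the ratio of catalytic to regulatory transcripts, which was 0.443, 0.421, 0.349 and 0.387 in Control, 0.147, 0.187, 0.211 and 0.187 in PCOS, and 0.360, 0.536, 0.429 and 0.686 in PCOS-MV. The ratio was lowest in the 4 PCOS libraries and varied most among the PCOS-MV libraries (mean 0.503, SD 0.142). With Prkar2b left out of the regulatory sum it was 0.464 to 0.693 in Control, 0.371 to 0.417 in PCOS and 0.613 to 0.901 in PCOS-MV, so that the PCOS libraries were again the lowest. Prkar2b held 24.8% to 38.0% of regulatory transcripts in Control, 49.5% to 60.4% in PCOS and 23.9% to 41.2% in PCOS-MV. These are ratios of RNA, and subunit protein was not measured here.

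AKAPs are not related by sequence as a whole; they share a helix that docks the regulatory subunits of PKA, and each places the kinase elsewhere in the cell. Of 14 genes 10 were tested. In PCOS vs Control, where 27.4% of all genes tested were called, 1 was higher and 2 were lower. In PCOS-MV vs PCOS, where 25.7% were called, 2 were higher and 3 were lower. Their most extreme changes were smaller than those of the cyclases and phosphodiesterases: the AKAP log2 fold changes ran from -0.72 to 0.23 and from -0.28 to 0.52.

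Akap12 (gravin), a scaffold at the plasma membrane, was at 9.88, 12.1, 13.6 and 15.5 FPKM in Control, at 7.04, 8.87, 6.56 and 6.86 FPKM in PCOS, and at 13.9, 8.50, 7.66 and 13.9 FPKM in PCOS-MV. It was lower in every PCOS library than in every Control library (log2 fold change -0.72, SE 0.14, adjusted p = 0.00605). PCOS-MV 2 and 3 lay within the PCOS range, and the difference of 0.49 between PCOS-MV and PCOS on the log2 scale was not called (SE 0.20, adjusted p = 0.104), though it passed without PCOS-MV 3 (adjusted p = 0.0385).

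Akap10, which binds regulatory subunits of both types, was at 18.2, 20.5, 20.2 and 22.3 FPKM in Control, at 13.1, 11.5, 13.4 and 11.4 FPKM in PCOS, and at 19.3, 17.2, 19.4 and 16.3 FPKM in PCOS-MV. Its PCOS libraries lay below all others by a clear gap. It changed by -0.68 (SE 0.09, adjusted p = 0.000669) and by 0.52 on the log2 scale (SE 0.09, adjusted p = 0.00395), and both calls held with each library left out.

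Akap9, a large scaffold of the centrosome and Golgi, was at 10.7, 11.3, 12.1 and 11.3 FPKM in Control, at 13.3, 12.9, 13.6 and 13.7 FPKM in PCOS, and at 10.2, 10.6, 10.8 and 11.7 FPKM in PCOS-MV. It rose by 0.22 on the log2 scale in PCOS (adjusted p = 0.0323), a call that was kept in 1 of the 8 fits that left out a library, that without Control 3, and it changed by -0.28 in PCOS-MV vs PCOS (adjusted p = 0.0157), which was kept in all 8. Akap8, an anchor of the nuclear matrix, was at 11.7, 13.2, 13.4 and 13.6 FPKM in Control, at 17.2, 14.1, 15.8 and 14.8 FPKM in PCOS, and at 12.6, 13.0, 12.7 and 12.4 FPKM in PCOS-MV. The PCOS libraries of Akap8 were above all others, with a log2 fold change of 0.23 that was not called (adjusted p = 0.0654) and then -0.27 (adjusted p = 0.0299), the latter kept only without PCOS 2 or without PCOS-MV 3. With median ratio scaling the rise of Akap8 in PCOS was called too (adjusted p = 0.0213), as it was with 1 model for all libraries (adjusted p = 0.0326). Akap8 overlaps Akap8l on the same strand (mean of 6.94 FPKM), and how reads were divided between them is uncertain.

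Akap7, a small membrane anchor, was at 5.28, 7.36, 5.71 and 7.90 FPKM in Control, at 4.18, 4.49, 5.09 and 5.55 FPKM in PCOS, and at 5.68, 6.0, 6.74 and 7.35 FPKM in PCOS-MV. It was higher in PCOS-MV than in PCOS (log2 fold change 0.35, adjusted p = 0.0416), a call kept only without PCOS 4 or without PCOS-MV 1 and lost with 1 model for all libraries or with median ratio scaling (adjusted p = 0.0637 in both) and without the filter on low values (adjusted p = 0.0613). Against Control its PCOS level had a log2 fold change of -0.37 (adjusted p = 0.0758), which passed without Control 1 (adjusted p = 0.0376) and with library quality weights (adjusted p = 0.0213). Akap13, a large anchor, was at 9.77, 11.5, 16.5 and 12.9 FPKM in Control, at 13.6, 12.5, 13.2 and 12.3 FPKM in PCOS, and at 9.95, 11.4, 11.3 and 11.0 FPKM in PCOS-MV. Its lower level in PCOS-MV than in PCOS (log2 fold change -0.22, adjusted p = 0.0469) was lost with any 1 library left out (adjusted p from 0.0542 to 0.103) and with 1 model for all libraries (adjusted p = 0.211).

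Akap2 had the highest AKAP level, at 71.0, 59.1, 39.1 and 56.1 FPKM in Control, at 47.4, 38.1, 35.9 and 41.9 FPKM in PCOS, and at 60.7, 24.2, 66.2 and 36.9 FPKM in PCOS-MV. Control 3 lay within the PCOS range, and the log2 fold change of -0.43 in PCOS vs Control was not called (95% interval -0.82 to -0.04, adjusted p = 0.0969). It passed without Control 3 (adjusted p = 0.0085) and with library quality weights (adjusted p = 0.0135). Akap2 shares its strand and part of its span with AC134204.1 (mean of 35.6 FPKM), so its level is uncertain. Akap1, Akap3 and Akap11 had log2 fold changes between -0.13 and 0.12 in PCOS vs Control and were not called.

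At the end of the chain, neither transcription factor changed its RNA level past the test. Creb1 was at 16.5, 21.8, 17.4 and 20.1 FPKM in Control, at 19.7, 19.5, 19.2 and 21.7 FPKM in PCOS, and at 17.4, 19.9, 19.5 and 18.7 FPKM in PCOS-MV. Crem was at 3.01, 4.09, 5.71 and 4.69 FPKM in Control, at 5.34, 4.25, 3.86 and 4.17 FPKM in PCOS, and at 3.17, 3.90, 6.27 and 3.77 FPKM in PCOS-MV. All groups overlapped for both genes. The log2 fold change of Creb1 was 0.08 (95% interval -0.14 to 0.30) and -0.08 (-0.24 to 0.08), and that of Crem was 0.02 (-0.34 to 0.39) and -0.06 (-0.45 to 0.33). CREB is switched on by phosphorylation, which RNA levels do not show.

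Crem is itself a gene with cAMP response elements: an internal promoter is known to give the short repressor ICER when cAMP rises. Of its 3 RefSeq windows 2 are shown, because they alone among the windows of the cAMP genes held the full palindrome TGACGTCA, in capitals here. The first (chr17:58984547-58984796, plus strand) has it at position -56 and the second (chr17:58985240-58985489, plus strand) at position -35 from the annotated start, with a further copy at position 40 after the second start.
Crem, first window: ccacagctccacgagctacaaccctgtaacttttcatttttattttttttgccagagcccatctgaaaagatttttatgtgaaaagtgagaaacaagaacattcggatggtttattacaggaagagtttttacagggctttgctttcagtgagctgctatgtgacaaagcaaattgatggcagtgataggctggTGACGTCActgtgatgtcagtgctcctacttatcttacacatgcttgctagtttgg
Crem, second window: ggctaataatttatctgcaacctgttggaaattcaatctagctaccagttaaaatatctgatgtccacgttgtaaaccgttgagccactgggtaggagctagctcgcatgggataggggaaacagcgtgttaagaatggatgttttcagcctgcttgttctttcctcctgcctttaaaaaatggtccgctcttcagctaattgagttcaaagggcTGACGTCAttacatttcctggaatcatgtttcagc
The deposited value sums all 7 Crem transcripts listed, so ICER is not told apart from the longer forms.

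RefSeq windows (250 bases before to 50 after a start) were found for 41 of the 54 symbols, 55 windows in all, and none for Adcy3, Adcy6, Adcy8, Akap2, Pde1b, Pde3b, Pde4c, Pde6c, Pde6d, Pde7a, Pde7b, Pde9a and Prkar2a. The palindrome was in 2 of the 55 windows (3.64%), where 1.83% of all 33469 windows hold it. Its core TGACGT, which lies within the palindrome on both strands, was in 7 windows (12.7%, against 7.94% of all), those of Crem, Pde4d, Pde4a, Pde10a and Akap11. Of these 5 genes only Pde4d was called in a comparison. The site AAGGTCA of the steroidogenic factor SF-1 was in 3 windows (5.45%, against 4.61% of all), those of Creb1, Pde6a and Akap14. A match of letters is a description of the window and not a site shown to be bound.

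In PCOS-MV vs Control, 0 of the 41 genes were called by limma, where 1 of 13430 genes was (0.00745%), and 0 were called in any alternative setting run. At an unadjusted p under 0.05 there was 1 gene, Pde8b (2.44%, against 8.5% of all genes). Pde8b was higher in each PCOS-MV library than in each Control library (log2 fold change 0.71, SE 0.18, 95% interval 0.30 to 1.11, adjusted p = 0.466, exact permutation p = 0.0286). Pde5a was the other gene whose groups did not overlap, at 5.79 to 6.03 FPKM in PCOS-MV and 6.33 to 11.7 FPKM in Control (log2 fold change -0.32, adjusted p = 0.623). These 2 genes are 4.88% of the 41, where the groups of 5.1% of all genes did not overlap. In size, the log2 fold changes of this comparison had a median of 0.12, as did those of all genes.

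**Figure D5:**
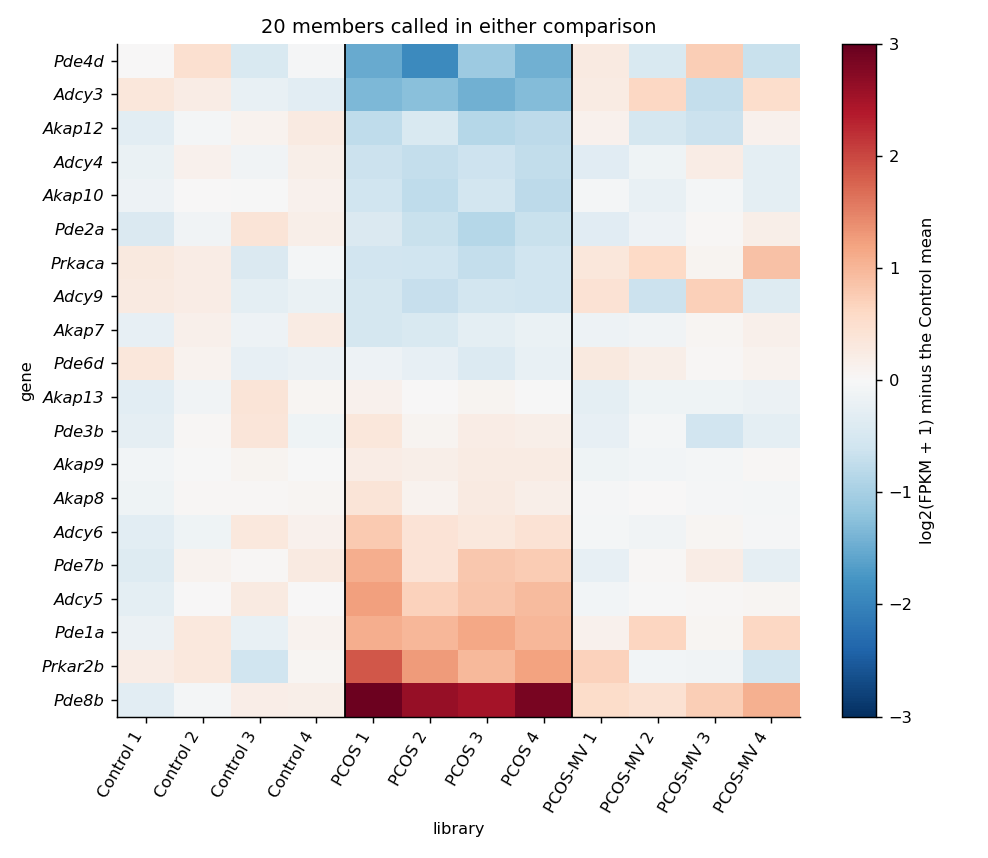
Log2(FPKM + 1) of the 20 cAMP genes called in PCOS vs Control or PCOS-MV vs PCOS, minus the mean of the 4 Control libraries, for each library (columns, black lines between the groups), ordered by the PCOS vs Control change. The PCOS columns are blue at the top (Pde4d) and red at the bottom (Pde8b), while the PCOS-MV columns are paler for these genes. Pde3b and Akap13 lay farther from Control in PCOS-MV (log2 fold change -0.29 and -0.18) than in PCOS (0.20 and 0.05). PCOS-MV 1 and 3 are red and PCOS-MV 2 and 4 blue for Pde4d and Adcy9, and for Adcy3 only PCOS-MV 3 is blue.

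The spread among rats differed between the groups gene by gene. On the log2 scale the SD was larger in PCOS-MV than in PCOS for 24 of the 41 genes and smaller for 17, with medians of 0.16 and 0.15. The median SD in Control was larger than both, at 0.25. The SD of Adcy9 was 32.2 FPKM in PCOS-MV and 2.32 FPKM in PCOS, that of Prkaca was 32.7 and 2.70 FPKM, and that of Adcy3 was 3.79 and 0.205 FPKM. The reverse was seen for Adcy5 (0.342 and 2.54 FPKM) and Adcy6 (0.710 and 3.52 FPKM). In FPKM the SD of Pde8b (0.887 and 2.56 FPKM) and of Prkar2b (42.2 and 78.1 FPKM) was also smaller in PCOS-MV. Their means were lower there too, at 3.49 and 17.2 FPKM for Pde8b and 112 and 278 FPKM for Prkar2b. On the log2 scale the SD of Adcy5 and Adcy6 was again smaller in PCOS-MV, while that of Pde8b and Prkar2b was larger. PCOS-MV 1 and 3 had the higher levels of Adcy9, Akap2 and Pde4d and the lower levels of Prkaca, Adcy3 and Pde1a, and PCOS-MV 2 and 4 the reverse. The summed luteal markers were also unequal, at 4300, 2210, 4590 and 2190 FPKM in PCOS-MV 1 to 4, beside 2270, 1240, 1160 and 1470 FPKM in PCOS 1 to 4. The sum of the theca and interstitial markers was 2940, 899, 2020 and 938 FPKM in PCOS-MV 1 to 4. The part of these cells in the spread was not tested.

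Of the 14 genes below 1 FPKM on average, the ligand Adcyap1 stood out. It encodes PACAP, a peptide that raises cAMP through its own receptors and is known from granulosa cells before ovulation. Its level was 0.0838, 0.153, 0.122 and 0.193 FPKM in Control, 1.47, 0.482, 1.14 and 0.522 FPKM in PCOS, and 0.0771, 0.477, 0.201 and 0.301 FPKM in PCOS-MV. All PCOS libraries were above all others, by a small margin over PCOS-MV 2. Without the filter on low values, PCOS exceeded Control by 0.71 on the log2 scale (SE 0.17, adjusted p = 0.0247 from limma), and PCOS-MV differed from PCOS by -0.57 (SE 0.19, adjusted p = 0.0815 from limma).

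In that unfiltered fit, where the share of all genes called was 19.4% between PCOS and Control and 17.9% between PCOS-MV and PCOS, 3 more of the 14 genes were called. Pde4c (ENSRNOG00000019518, the longer of a pair of entries with that symbol) was at 0.675 to 1.09 FPKM in PCOS, 0.229 to 0.489 FPKM in Control and 0.158 to 0.308 FPKM in PCOS-MV, with log2 fold changes of 0.53 and -0.61 (adjusted p = 0.00692 and 0.00327). Akap6, an anchor of the nuclear envelope of muscle cells, was at 0.529 to 0.628 FPKM in PCOS, 0.935 to 1.37 FPKM in Control and 0.717 to 1.02 FPKM in PCOS-MV (log2 fold changes -0.43 and 0.28, adjusted p = 0.00487 and 0.0149). Pde6a, known from rod photoreceptors, was at 0.268 to 0.431 FPKM in Control and 0.603 to 0.796 FPKM in PCOS (log2 fold change 0.32, adjusted p = 0.00633), and in PCOS-MV it was at 0.460, 1.35, 0.366 and 1.27 FPKM. The other 10 entries (Adcy1, Adcy8, Adcy10, Akap4, Akap5, Akap14, Pde1c, Pde6b, Pde6c and the shorter Pde4c entry) were not called in PCOS vs Control or PCOS-MV vs PCOS. Akap14, an anchor of cilia, was at 0.539 FPKM in Control 3 and at most 0.178 FPKM elsewhere, and the summed markers of ciliated oviduct epithelium (6 of 8 found) were 34.0 FPKM in Control 3 and 2.33 to 7.42 FPKM elsewhere. The part of such tissue in Control 3 was not tested.

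The chain was also followed outside these 55 genes, with lists of other genes of the pathway. Of 10 Gs-coupled receptors tested, 2 were higher and 3 lower in PCOS vs Control, and 3 higher and 2 lower in PCOS-MV vs PCOS. Lhcgr, the receptor of luteinizing hormone, was at 28.7 to 78.2 FPKM in Control, 113 to 199 FPKM in PCOS and 15.2 to 97.8 FPKM in PCOS-MV, with log2 fold changes of 1.39 (adjusted p = 0.0104) and -1.89 (adjusted p = 0.0269). Fshr, the receptor of follicle-stimulating hormone, changed by 0.90 and -1.37 (adjusted p = 0.0107 and 0.00206).

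Of 5 G protein alpha subunits tested, 1 was higher and 1 lower in each comparison. Gnai1, which inhibits adenylyl cyclase, was at 13.4 to 16.0 FPKM in Control, 5.75 to 6.65 FPKM in PCOS and 12.5 to 14.6 FPKM in PCOS-MV, with log2 fold changes of -1.13 (SE 0.08, adjusted p = 3.07e-05 from limma) and 1.01 (SE 0.08, adjusted p = 0.000117 from limma). Gnas, which stimulates it, rose by 0.47 in PCOS (adjusted p = 0.00218) and had a log2 fold change of -0.14 in PCOS-MV vs PCOS (adjusted p = 0.517). Another entry with the symbol Gnas was below the level for testing and lower in PCOS (0.0947 to 0.271 FPKM) than in Control (0.334 to 0.482 FPKM). Gnao1 was lower in PCOS-MV than in PCOS (log2 fold change -0.80, adjusted p = 0.00194).

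Beside PKA, cAMP acts on the exchange factor Epac1, the product of Rapgef3. Of 3 such effectors tested, Rapgef3 was the gene called: it was at 6.28 to 9.14 FPKM in Control, 12.2 to 17.2 FPKM in PCOS and 6.90 to 7.84 FPKM in PCOS-MV, with log2 fold changes of 0.87 (adjusted p = 0.00148) and -0.89 (adjusted p = 0.000711). Of 2 PKA inhibitors tested, 1 was lower in each comparison: Pkig was lower in PCOS by a log2 fold change of -0.72 (adjusted p = 0.00281) and was not called in PCOS-MV vs PCOS (log2 fold change 0.19, adjusted p = 0.268), and Pkia was lower in PCOS-MV than in PCOS (log2 fold change -0.57, adjusted p = 0.0252).

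Among 5 partners of CREB tested, 2 were higher and 1 was lower in PCOS vs Control, and 2 were lower in PCOS-MV vs PCOS. The coactivators Crtc3 and Crtc1 rose by 0.57 and 0.50 in PCOS (adjusted p = 0.00875 and 0.00307) and differed by -0.50 and -0.37 between PCOS-MV and PCOS (adjusted p = 0.0159 and 0.00501), while Crtc2 was not called (log2 fold changes 0.22 and -0.26). Of 11 genes known as CREB targets, 2 rose and 3 fell in PCOS vs Control, and 3 were higher and 2 lower in PCOS-MV vs PCOS, so the list had no common direction. Cyp19a1, the aromatase gene, changed by 1.74 and -2.81 (adjusted p = 3.64e-05 and 0.0113). Star, which brings cholesterol into mitochondria, changed by -1.70 and 1.57 (adjusted p = 0.00241 and 0.00742). Dusp1 fell by 1.63 in PCOS (adjusted p = 0.00357) and had a log2 fold change of 1.01 in PCOS-MV vs PCOS that was not called (adjusted p = 0.0903).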

How the data were processed

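Ovarian RNA of 12 rats was sequenced as paired-end reads after preparation with a kit that does not mark strand, 1 library per rat and 4 per group. The authors deposited FPKM values per gene. The paper names HISAT2 and featureCounts for alignment and counting, whereas the submitters' processing notes name STAR 2.5.1b and HTSeq 0.6.0, and this was not resolved. The genome build is not given in the sources used here. Group means and the authors' own DESeq2 fold changes and p-values in the same table were not used.

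Each gene's value, repeated on its transcript lines without differing, was kept once (19730 genes). The 13430 genes that averaged 1 FPKM or more over the 12 libraries were compared between groups of 4 on log2(FPKM + 1) with limma 3.58.1 (R 4.3.3, trended variance), with Benjamini-Hochberg adjustment over all of them and a threshold of 0.05. The scale understates changes of genes with low levels. SE is the standard error of the log2 fold change, and intervals are 95% intervals from limma. The exact permutation test (two-sided, SciPy 1.17.1) cannot go below 0.0286. The fits were tested on simulated data. The genes and lists were chosen with earlier results of these data known. Named are all genes called in PCOS vs Control or PCOS-MV vs PCOS, the gene with the highest level of each family, Adcyap1, Creb1 and Crem, and up to 3 genes with the largest changes of each list of other pathway genes. Pde10a, Pde5a, Pde4c, Akap6, Pde6a and Akap14 and paralogs of called genes are named too, chosen with their values known. Alternatives were a pseudocount of 0.1, no filter, 1 model for all libraries, a replicate block, median ratio scaling, library quality weights and leaving out each library. The values of some genes on the pathway lists are not reported here.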

Additional observations from a re-analysis of the deposited data

Results flagged for a closer look

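In all, 186 groups of 4 libraries were examined (the genes tested and Adcyap1, with family sums, shares and ratios). Of these, 7 had a library whose gap to the nearest of the others exceeded the 95% critical value of Dixon's test. Chance gives about 9.3, though the groups are not independent, as the sums, shares and ratios reuse the values of the genes. None of the 5 genes concerned was called in a comparison. Pde10a was at 20.7 FPKM in PCOS 1 and at 2.54 to 5.26 FPKM in the other PCOS libraries, and the summed enzymes that break down both nucleotides were at 63.9 FPKM in PCOS 1 against 43.1 to 45.4 FPKM. Adcy2 was at 1.80 FPKM in PCOS 1 and at 1.39 to 1.44 FPKM in the others. Pde5a was at 11.7 FPKM in Control 3 and at 6.33 to 6.85 FPKM in the other Control libraries. Pde1b was at 4.57 FPKM in PCOS-MV 2, against 2.81 to 3.05 FPKM, and Prkar1b was at 2.53 FPKM in PCOS-MV 1, against 3.38 to 3.48 FPKM. Pde8b made up 8.31% of the cAMP-specific phosphodiesterase sum in PCOS-MV 4 and 4.33% to 4.69% in the other PCOS-MV libraries.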

How the results depend on the processing

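No log2 fold change of the named genes turned its direction past the threshold in any alternative run. The 15 genes called in PCOS vs Control became 15 with a pseudocount of 0.1, 17 without the filter on low values (which adds genes of low level), 16 with 1 model for all libraries, 16 with median ratio scaling, 18 with library quality weights and 12 to 17 with 1 library left out. The 18 called in PCOS-MV vs PCOS became 18, 19, 16, 17, 18 and 15 to 17 in the same order, and the 0 in PCOS-MV vs Control remained 0. Calls over all genes moved too: in PCOS vs Control they were 27.4% as reported, 35.3% with quality weights (43.9% of the cAMP genes) and 20.6% to 29.2% with 1 library left out (29.3% to 41.5% of the cAMP genes), and in PCOS-MV vs PCOS 25.7%, 32.7% and 18.2% to 25%. The labels do not say that replicate numbers pair the rats, and not every same-number pair correlated above 0.1, so the numbers were not treated as pairs: the deviations of libraries with the same number correlated at -0.033 to 0.024 between PCOS and Control, 0.035 to 0.172 between PCOS-MV and PCOS (3 of 4 above 0.1) and -0.053 to 0.216 between PCOS-MV and Control, with 0, 3 and 1 of 4 libraries closest to their own number. With the replicate block, 13 genes were called in PCOS vs Control (31.7%, against 21.6% of all genes) and 16 in PCOS-MV vs PCOS (39.0%, against 22.9%). Adcy6, Pde2a and Akap9 lost their PCOS vs Control call under the block and Akap2 gained one (adjusted p = 0.111, 0.0794, 0.0896 and 0.0363), and Akap8 and Akap13 lost theirs in PCOS-MV vs PCOS (adjusted p = 0.0638 and 0.106). Without the filter Adcy6 lost its call in PCOS vs Control (adjusted p = 0.0709). The causes of these changes in call were not tested. Depth is unknown, so precision at low FPKM cannot be given.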

Other observations

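Cyclic GMP shares several phosphodiesterases with cAMP, and 5 of the 6 genes of its synthesis and reading that were found had a mean of at least 1 FPKM. Nppc, the gene of C-type natriuretic peptide, which holds the oocyte in meiotic arrest through cGMP, was at 4.46, 4.80, 4.74 and 5.21 FPKM in Control, at 14.1, 10.6, 10 and 9.75 FPKM in PCOS, and at 4.16, 5.32, 5.76 and 3.53 FPKM in PCOS-MV. Its PCOS libraries were above all others (log2 fold change 1.05, SE 0.12, adjusted p = 0.000322 from limma, then -1.10, SE 0.16, adjusted p = 0.00181). Gucy1b1, a subunit of the soluble guanylyl cyclase, took the opposite course (log2 fold change -0.91, adjusted p = 0.0021, then 0.71, adjusted p = 0.00208), and Npr1 was lower in PCOS (log2 fold change -0.42, adjusted p = 0.0425) and not called in PCOS-MV vs PCOS (0.30, adjusted p = 0.0542). In PCOS vs Control, where 27.4% of all genes tested were called, 1 of the 5 was higher and 2 were lower. In PCOS-MV vs PCOS, where 25.7% were called, 1 was higher and 1 lower.

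Of the anchoring proteins that do not bear the name Akap with a number, 7 were tested. In PCOS vs Control, where 27.4% of all genes tested were called, 3 were higher and 0 lower. In PCOS-MV vs PCOS, where 25.7% were called, 0 were higher and 2 lower. The 3 higher in PCOS were Map2 (log2 fold change 0.47, adjusted p = 0.0319 from limma), Myrip (0.37, adjusted p = 0.0303) and Gskip (0.21, adjusted p = 0.0426), named for their calls after their values were seen, and Gskip was also lower in PCOS-MV than in PCOS (-0.28, adjusted p = 0.0345). By size of change over both comparisons, Akap8l had log2 fold changes of 0.33 (adjusted p = 0.159) and -0.54 (adjusted p = 0.0219), Ezr of -0.51 and 0.24 (adjusted p = 0.375 and 0.449) and Wasf1 of 0.48 and -0.39 (adjusted p = 0.0749 and 0.128). Ezr was at 70.8 FPKM in Control 3 and at 19.4 to 19.8 FPKM in the other Control libraries.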
